A study of Mus musculus with 2 samples.

Results

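Mø cluster 2 is 1 of 26 cell type names that the submitters gave to leukocytes sorted from YUMM1.7 melanomas, a transplanted mouse melanoma line. Its members are the cells that carry this name in the deposited annotation, 161 in the APOE4 library and 398 in the APOE2 library, so 559 of 10050 annotated cells. The mice carried human APOE4 or human APOE2 in place of their own Apoe gene, and both groups received 100000 tumour cells with Matrigel in the flank and were sampled at day 19. From each mouse 10000 CD45+ DAPI- cells were sorted, and those of 6 mice were pooled into 60000 cells and 1 library per genotype, with 5000 cells targeted. Neither a wild-type nor an APOE3 group was analysed here, and mice cannot be told apart within a pool.

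With 1 library per genotype, no difference between genotypes or clusters has a replicate check, and no test was made. Every interval below is a 95% interval of counting error in that one library or pair of libraries. Differences between mice, tumours or sorting are not in it. For levels and ratios of genes, the spread between cells is not in it either. The APOE4 library held 5385 annotated cells with 37349222 UMIs (unique molecular identifiers, 1 per captured transcript), and the APOE2 library 4665 cells with 41207514 UMIs. The median cell of Mø cluster 2 gave 8406 UMIs from 2712 genes in APOE4, against 9755 UMIs from 2862 genes in APOE2. Mitochondrial transcripts made up a median of 3.34% of UMIs in APOE4 and 3.80% in APOE2. The libraries shared 8 barcodes among annotated cells and 0 in Mø cluster 2. Levels are given as CPM, the UMIs of a gene per 1000000 UMIs summed over the cells of a label in 1 library, from 1607328 UMIs for Mø cluster 2 in APOE4 and 4195864 in APOE2.

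Macrophages in tumours arise mainly from blood monocytes, with a contribution from macrophages already resident in the tissue. They clear dying cells, present antigen and make cytokines, and they take on different programmes with oxygen supply, iron load and signals such as interleukin 4 or interferons. Complement C1q, the adhesion receptor F4/80 (Adgre1) and the chemokine Pf4 mark mature macrophages. ApoE, the lipid carrier that differs between the genotypes, is itself a major product of macrophages.

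The name was checked first against its markers. C1qa and C1qc, chains of the complement recognition protein C1q, reached 2842 and 1629 CPM in APOE4 and 3352 and 1820 CPM in APOE2. Among the labels with at least 50 cells only Mø cluster 1 had more of either gene in each library, and the same held for Adgre1, at 300.5 CPM in APOE4 and 275 CPM in APOE2. Pf4 was at its highest in Mø cluster 2, with 1853 CPM in APOE4 and 2768 CPM in APOE2, against 687 and 1999 CPM in Mø cluster 1. All 12 genes of the macrophage marker list were detected in both libraries, with a summed level of 13001 CPM in APOE4 and 15462 CPM in APOE2. The mannose receptor Mrc1 was highest here too (845.5 CPM in APOE4 and 1349 CPM in APOE2). The markers thus fit the macrophage name. Over all genes, Mø cluster 1 had the most similar profile (Pearson r of log2 CPM 0.959 in APOE4 and 0.970 in APOE2, across 10539 and 10628 genes of summed cells), followed by Monocytes 1.

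Apoe transcripts, counted on the mouse gene, were also higher in Mø cluster 2 than in any other label with at least 50 cells. Among smaller labels, the 48 mast cells of APOE2 had 476 CPM [400.4, 562]. They stood at 371 CPM [342, 402] in APOE4 and 453 CPM [433, 474] in APOE2, against 228 and 304 CPM in Mø cluster 1, and the APOE4/APOE2 ratio in Mø cluster 2 was 0.819 [0.746, 0.899]. How far reads of the human alleles are counted on the mouse gene is not given in the sources used here, so these values do not check the genotype.

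Transcripts of other cell types were few but differed between the libraries. T and NK cell markers summed to 232 CPM in APOE4 and 72.2 CPM in APOE2, with all 9 measured markers detected, and Nkg7, a protein of cytotoxic granules, alone gave 65.95 and 18.8 CPM. Lymphocyte transcripts were thus higher in APOE4. Neutrophil markers were lower in APOE4, with 150 CPM against 336 CPM in APOE2, and Ly6g, which defines neutrophils, was at 0 in both. Of the dendritic cell markers Flt3, Zbtb46, Xcr1 and Clec9a were at 0 in APOE4, and Clec9a was at 0 in APOE2. B cell markers reached 31.7 CPM in APOE4 and 8.34 CPM in APOE2, where Cd79a and Ms4a1 were at 0. The melanoma genes Mlana, Dct, Tyr, Tyrp1 and Sox10 were at 0 in both libraries. Except where a value below leaves such cells out, the part of these transcripts in the differences between libraries was not tested.

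A small group of genes was higher in Mø cluster 2 than in every other label with at least 50 cells. They belong to alternative activation (Retnla, Arg1), heme breakdown (Hmox1), scavenger and lectin receptors of resident macrophages (Cd163, Lyve1, Cd209f, Fcna) and acute-phase or coagulation proteins (Saa3, F7). These are the genes with the greatest ratio to the next-highest label, chosen from the same cells that were clustered, so their levels describe the label and test nothing. None of the 12 was higher in a label with fewer cells either, among them the skin resident Mø (8 cells in APOE4 and 47 in APOE2), where Cd163 and Cd209f were at 0 UMIs. All 12 genes chosen this way are drawn in the plot of CPM in this and the other labels.

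**Figure D1:**
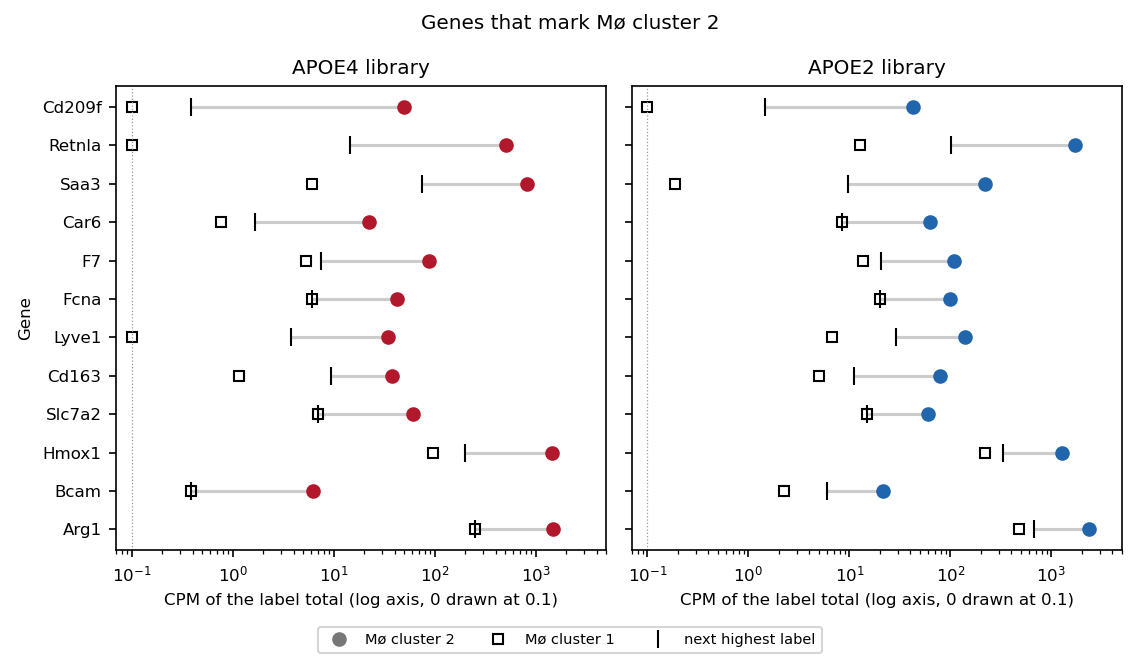
Level (CPM, log axis, with 0 drawn at 0.1) of the 12 genes with the greatest ratio of Mø cluster 2 (filled points) to the next-highest label with at least 50 cells (ticks), beside Mø cluster 1 (open squares), with APOE4 left of APOE2. Each gene stands above the next-highest label in both libraries, and Retnla is at 513 CPM in APOE4 and 1699 CPM in APOE2.

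Retnla, a secreted protein induced by interleukin 4 and 13 in macrophages, stood at 513 CPM in APOE4 and 1699 CPM in APOE2. The next-highest label had 14.4 CPM in APOE4 and 101 CPM in APOE2. Its gene lies on mm10 chromosome 16 (48842551 to 48844461, plus strand). Saa3, an acute-phase serum amyloid A protein made outside the liver, went the other way between the libraries, with 815 CPM in APOE4 and 220 CPM in APOE2 (chromosome 7, 46711998 to 46715700, minus strand). Its next-highest labels were M-MDSC 2 in APOE4 (75.1 CPM) and Monocytes 3 in APOE2 (9.74 CPM). Arg1, the arginase that turns arginine into ornithine, had 1495 CPM in APOE4 and 2354 CPM in APOE2 (chromosome 10, 24915221 to 24927484, minus strand).

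Hmox1 encodes heme oxygenase 1, which opens the heme ring and frees its iron (chromosome 8, 75093621 to 75100589, plus strand). It stood at 1452 CPM in APOE4 and 1277 CPM in APOE2, a ratio of 1.14, while the next-highest label had 198 and 329 CPM. Cd163, the scavenger receptor for hemoglobin bound to haptoglobin, had 38.0 CPM in APOE4 and 79.6 CPM in APOE2. Lyve1, a hyaluronan receptor of lymphatic vessels and perivascular macrophages, had 34.8 CPM in APOE4 and 139 CPM in APOE2 (chromosome 7, 110850607 to 110863239, minus strand). The C-type lectin Cd209f had 49.2 CPM in APOE4 and 42.7 CPM in APOE2 and no more than 1.46 CPM in any other label with at least 50 cells. Its UMIs came from few cells of the label, 6 of 161 in APOE4 and 16 of 398 in APOE2. The single highest cell held 39 of 79 and 54 of 179 UMIs. F7, coagulation factor VII, had 87.7 CPM in APOE4 and 109 CPM in APOE2, and the cationic amino acid transporter Slc7a2 had 60.3 and 59.6 CPM. Car6, a secreted carbonic anhydrase, had 22.4 and 63.4 CPM. The ficolin Fcna, a lectin that starts complement, stood at 42.3 CPM in APOE4 and 98.9 CPM in APOE2. Of these 12 genes, 7 differed at least 2-fold between the libraries, beside 1.4% of genes at least 2-fold higher and 1.3% at least 2-fold lower in APOE4 in the label as a whole. Several of the 7 rest on few cells or UMIs. Fcna, Slc7a2 and Bcam overlap a gene on the other strand, so their counts are uncertain. Cd209f belongs to a family of related genes whose sequences were not compared here, so its count may be uncertain too.

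Some of these genes came from a minority of the cells and others from most of them. At an equal depth of 2000 UMIs per cell (154 cells in APOE4 and 383 in APOE2, with 7 and 15 shallower cells left out), Retnla was seen in 9.74% of cells in APOE4 and 22.2% in APOE2. Without thinning it was seen in 18 of 161 cells (11.2%) and 106 of 398 cells (26.6%). CD8+ T cells, which are not known to make Retnla, gave 0.217% and 0.952% at the same depth, a measure of free RNA. Their median was 3456 UMIs in APOE4 and 3530 UMIs in APOE2. Saa3 was seen in 14.9% of cells in APOE4 and 9.14% in APOE2 after thinning (22.98% and 15.3% before), and Lyve1 in 5.84% and 11.2% (8.70% and 18.6% before). Hmox1 was much more widespread. Before thinning 80.7% of cells in APOE4 and 89.7% in APOE2 held it, and after thinning 46.8% and 58.7% did, against 11.5% and 20.7% in Mø cluster 1 and 1.30% and 4.76% in CD8+ T cells. C1qa lay in 78.6% and 78.9% of cells after thinning, so the macrophage marker and, before thinning, Hmox1 were common to most cells, while Retnla, Saa3 and Lyve1 were not. Arg1 lay between, in 31.8% of cells in APOE4 and 49.9% in APOE2 after thinning.

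UMIs were also counted in the 10% of cells richest in a gene, 17 cells in APOE4 and 40 cells in APOE2. These cells held 99.9% of Retnla UMIs in APOE4 and 89.4% in APOE2, with 263 and 591 UMIs in the single highest cell. For Saa3 they held 96.6% and 97.4%, and for the chemokine Ccl8 91.2% and 93.4%. Hmox1 was spread more evenly than these genes, at 82.5% in APOE4 and 68.4% in APOE2, but less evenly than Arg1, at 75.5% and 53.8%. So Hmox1 was seen in most cells before thinning, yet the richest 10% held most of its UMIs. C1qa was spread more evenly than all of these, at 33.7% and 34.2%. The 10 genes named by rule ranked highest in variance over mean at 5000 UMIs per cell (132 cells in APOE4, 333 in APOE2). They included the ferritin chains Fth1 (119 in APOE4 and 94.6 in APOE2) and Ftl1 (45.7 and 35.3), the antioxidant enzyme Prdx1 (76.2 and 42.3), the secreted glycoprotein Spp1 (64.0 and 52.3) and Ccl8 (113 and 63.0). The same ratio in Mø cluster 1 was 24.5 and 20.8 for Fth1, 6.42 and 10.6 for Ftl1 and 5.90 and 8.93 for Prdx1, so these iron storage and redox genes had a higher variance over mean in Mø cluster 2 in both libraries. Hspa1b, a heat shock gene also induced when tissue is dissociated, had a lower ratio here (36.0 and 44.7) than in Mø cluster 1 (37.0 and 60.1).

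Genes that varied together fell into several patterns inside the label. Spearman correlations were taken across cells at 5000 UMIs each, 132 in APOE4 and 333 in APOE2, and are a description, since cells of 1 library share its preparation and each cell's genes share a fixed total. Arg1 went with the summed hypoxia and glycolysis genes (rho 0.71 in APOE4 and 0.75 in APOE2), and singly with Mif, a cytokine (0.60 and 0.68), the angiogenic factor Vegfa (0.59 and 0.67), the glycolytic enzyme Aldoa (0.62 and 0.59) and Bnip3, a mitochondrial protein of hypoxic cells (0.61 and 0.56). Arg1 ran against the MHC class II genes (-0.37 and -0.37) and the antiviral interferon genes (-0.59 and -0.42). The hypoxia and resident macrophage lists ran against each other (-0.66 in APOE4 and -0.53 in APOE2).

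Resident macrophage genes kept together. Lyve1 went with Fcna (0.42 in APOE4 and 0.51 in APOE2) and with the leukotriene C4 synthase Ltc4s (0.42 and 0.48). Lyve1 also went with the endothelin receptor Ednrb (0.43 and 0.39), which is not in the resident list. Folr2, a folate receptor, went with Ccl8 (0.58 and 0.42). Of the cells with a Lyve1 UMI at this depth, 7 of 7 in APOE4 and 52 of 53 in APOE2 also held Folr2, against 45.6% and 47.9% of the other cells. Retnla was seen in 0 of the 7 Lyve1 cells in APOE4 and 11 of the 53 (20.8%) in APOE2, against 10.4% and 26.4% of the other cells, which these counts do not separate. Retnla went with the eosinophil-type ribonuclease Ear2 (0.34 and 0.42), which was seen in 46.2% of Retnla cells in APOE4 and 64.7% in APOE2, against 8.40% and 17.7% of the rest. Pf4 ran against Cd74, the invariant chain of MHC class II (-0.57 and -0.55). The lipid-associated list, which holds genes of lipid uptake and storage, went with the heme and iron list (0.61 and 0.62).

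**Figure D2:**
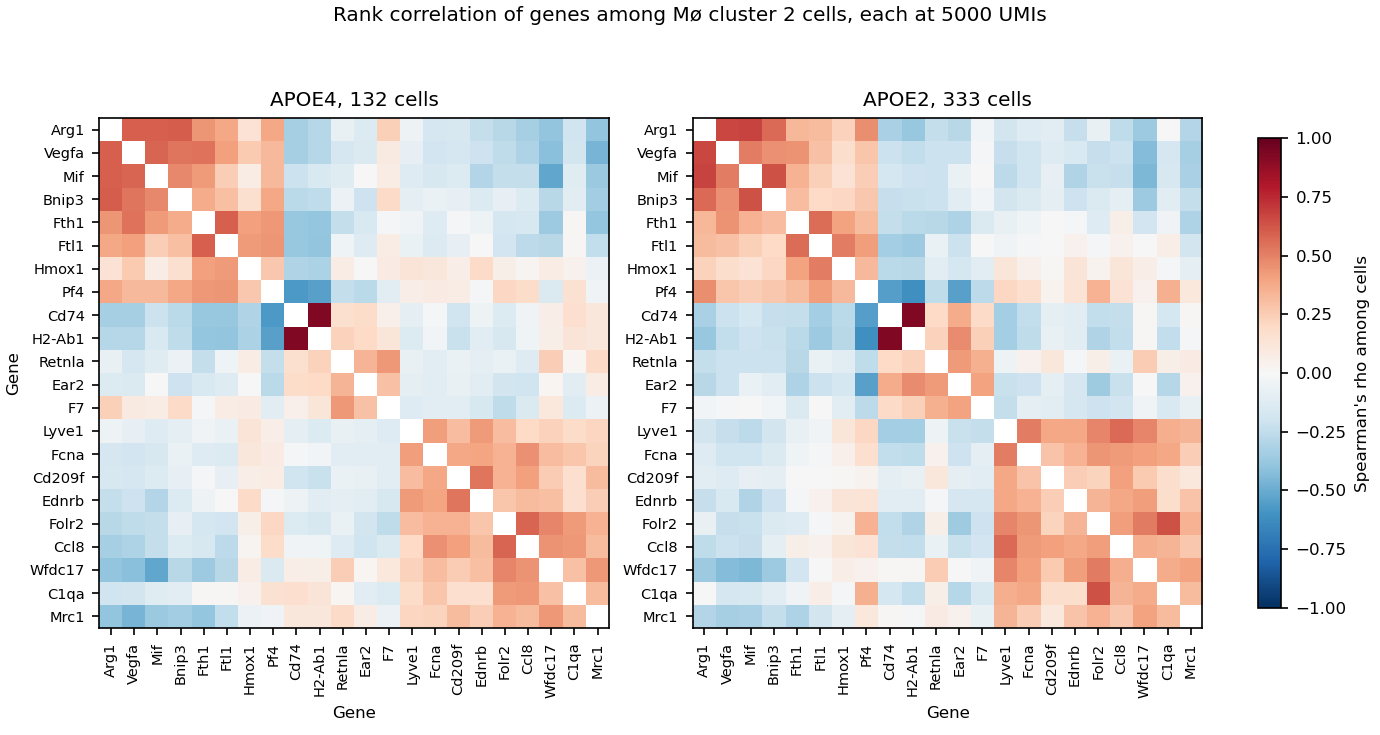
Spearman rho among cells of Mø cluster 2 thinned to 5000 UMIs, between pairs of genes (both axes; red positive, blue negative), with APOE4 (132 cells) left of APOE2 (333 cells). Arg1 is positive with Vegfa, Mif and Bnip3 and negative with Cd74 and H2-Ab1 in both panels, and the genes from Lyve1 to Mrc1 are positive with one another.

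Against Mø cluster 1, the other large macrophage label (245 cells in APOE4 and 481 in APOE2), Mø cluster 2 had more transcripts of the resident macrophage, alternatively activated and hypoxia lists and less of the MHC class II and proliferation lists. Of 9486 genes with at least 50 UMIs, 281 (2.96%) were at least 2-fold higher in Mø cluster 2 in both libraries and 191 (2.01%) were at least 2-fold lower. The clusters were made from these genes, so the counts describe how far the labels lie apart. The median log2 ratio over all 10769 genes with at least 20 UMIs was -0.06 in APOE4 and -0.06 in APOE2, where 3.42% were 2-fold higher and 2.56% 2-fold lower in both. Other lists differed between the labels too. Dissociation stress genes had medians of 0.42 in APOE4 and 0.38 in APOE2 (16 and 17 of 19 higher), neutrophil markers 1.75 and 0.75, and monocyte markers 0.43 and 1.14. The 12 macrophage markers had medians of -0.35 and -0.44. The part of these in the differences below was not tested.

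**Figure D3:**
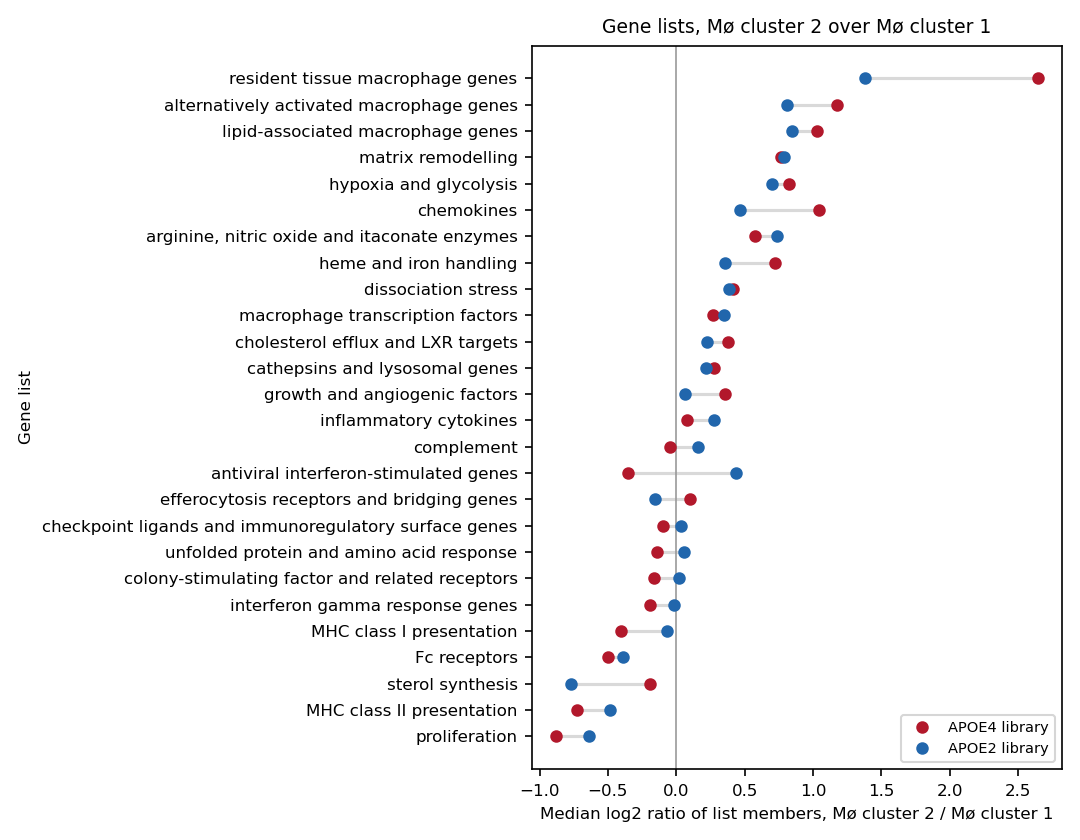
Median log2 ratio of Mø cluster 2 to Mø cluster 1 for each gene list other than the cell type marker lists, in APOE4 and in APOE2, with a line at 0. Of the lists drawn, resident macrophage genes lie farthest right in both libraries, at 2.65 in APOE4 and 1.38 in APOE2, and MHC class II and proliferation genes lie left of 0.

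Cell type marker lists aside, resident tissue macrophage genes stood highest of the lists, with a median log2 ratio of 2.65 in APOE4 and 1.38 in APOE2, and 10 of 18 measured members were at least 2-fold higher in both libraries. Folr2 had 274 CPM in APOE4 and 426 CPM in APOE2, against 46.4 and 145 CPM in Mø cluster 1, and Cbr2, a carbonyl reductase, had 191 and 256 CPM against 6.14 and 111 CPM. Ltc4s, which makes leukotriene C4, had 112 and 241 CPM against 16.9 and 41.4 CPM. Alternatively activated genes had medians of 1.18 in APOE4 and 0.81 in APOE2, with 9 of 20 members past 2-fold in both. Fibronectin, Fn1, was among them with 2637 CPM in APOE4 and 3808 CPM in APOE2, against 541 and 1076 CPM in Mø cluster 1.

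Lipid-associated macrophage genes were higher as well, while sterol synthesis genes were lower mainly in APOE2, with medians of -0.20 in APOE4 and -0.77 in APOE2. Of 21 sterol synthesis genes, 1 in APOE4 and 9 in APOE2 were at least 2-fold lower, and 0 in both. Over all 10769 genes, 909 in APOE4 and 626 in APOE2 were at least 2-fold lower. The lipid-associated list had medians of 1.03 in APOE4 and 0.85 in APOE2, with 8 of 20 members at least 2-fold higher in both libraries and 1 at least 2-fold lower. Lipoprotein lipase, Lpl, stood at 231 CPM in APOE4 and 362.5 CPM in APOE2, against 35.3 and 82.1 CPM in Mø cluster 1, and the protease Ctsd at 1758 and 2374 CPM against 595 and 1082 CPM. Trem2, the lipid-sensing receptor that gives this state its name in other tissues, did not share this, with 412 and 438 CPM against 335 and 510 CPM. Cd36, a fatty acid scavenger receptor, had 89.0 CPM in APOE4 and 89.4 CPM in APOE2, against 6.52 and 4.27 CPM in Mø cluster 1, ratios of 13.6 and 20.9.

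Hypoxia and glycolysis genes had medians of 0.82 in APOE4 and 0.70 in APOE2, with 6 of 24 past 2-fold in both. The oxygen sensor Egln3 had 53.5 and 71.5 CPM, against 8.82 and 18.0 CPM in Mø cluster 1. Heme and iron genes had medians of 0.72 and 0.36, with 3 of 15 past 2-fold. Among chemokines 6 of 21 were at least 2-fold higher in both libraries and 2 at least 2-fold lower. Ccl6 had 2798 CPM in APOE4 and 4696 CPM in APOE2, against 156.5 and 582 CPM in Mø cluster 1, and Ccl9 had 1613 and 2234 CPM against 305 and 647 CPM. In contrast Cxcl9, the interferon gamma-induced ligand of Cxcr3, was lower with 87.1 CPM in APOE4 and 3.34 CPM in APOE2, against 768 and 103 CPM. Cxcl16, a chemokine anchored in the membrane, had 230 and 154 CPM against 875 and 577 CPM. The antiviral interferon list had no common direction, at -0.36 in APOE4 and 0.44 in APOE2.

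The largest ratios above Mø cluster 1 belonged to genes nearly absent there. Retnla had 0 UMIs in Mø cluster 1 of APOE4, so it was at least 445-fold higher against a floor of 3 UMIs per library, and in APOE2 it was 134-fold higher (1699 against 12.6 CPM). Saa3 was 133-fold higher in APOE4 (815 against 6.14 CPM), and in APOE2, where Mø cluster 1 held 1 UMI of it, the ratio was 1184 [212, 46806]. Cd209f had 0 UMIs in Mø cluster 1 of both libraries and was at least 42.7-fold and at least 76.5-fold higher. Lyve1 was at least 30.3-fold higher in APOE4 and 20.8-fold higher in APOE2. Ednrb had 33.0 CPM in APOE4 and 109 CPM in APOE2, against 0 and 2.97 CPM. Slpi, an inhibitor of neutrophil proteases, was 13.2-fold and 15.1-fold higher, and the growth factor receptor Fgfr1 14.4-fold and 12.1-fold. Nos2, which makes nitric oxide from the same arginine as Arg1, had 28.6 CPM in APOE4 and 14.8 CPM in APOE2, against 2.69 and 0.558 CPM. At 5000 UMIs, Arg1 was seen in 8 of 10 cells with a Nos2 UMI in APOE4 and 15 of 15 in APOE2, against 37.7% and 57.5% of the other cells, so both enzymes were found in the same cells.

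Mø cluster 2 was lower than Mø cluster 1 in MHC class II genes and in several receptors. MHC class I genes had medians of -0.40 in APOE4 and -0.07 in APOE2, with 0 of 19 at least 2-fold lower in both. The 15 MHC class II genes had medians of -0.73 in APOE4 and -0.48 in APOE2, 3 of them at least 2-fold lower in both, and the class II chain H2-Ab1 had 4467 and 3498 CPM against 8873 and 5391 CPM. The adhesion molecule Vcam1 had 10.6 CPM in APOE4 and 6.91 CPM in APOE2, against 93.6 and 71.7 CPM. The fractalkine receptor Cx3cr1 had 42.9 and 27.2 CPM against 277.0 and 292 CPM, 6.45-fold and 10.7-fold lower. Axl, a receptor for dying cells, had 65.3 and 41.5 CPM against 306.5 and 211 CPM, and the integrin chain Itgax, also used as a dendritic cell marker, had 40.4 and 34.1 CPM against 161 and 103 CPM. The protease inhibitor Spint1 was 5.81-fold lower in APOE4 and 10.1-fold lower in APOE2. Proliferation genes had medians of -0.88 and -0.64. Vcam1 and Cx3cr1 overlap a gene on the other strand, which makes their counts uncertain.

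Between the genotypes, Mø cluster 2 of APOE4 had more interferon-stimulated and MHC class I transcripts and less of several alternative activation and resident genes. Of 7716 genes with at least 50 UMIs in the label, 108 (1.4%) were at least 2-fold higher in APOE4 and 100 (1.3%) at least 2-fold lower. The median log2 ratio over 9498 genes with at least 20 UMIs was 0.00, which scaling to a common total largely fixes. The plot of 23 named genes sets them beside Mø cluster 1 from the same libraries.

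**Figure D4:**
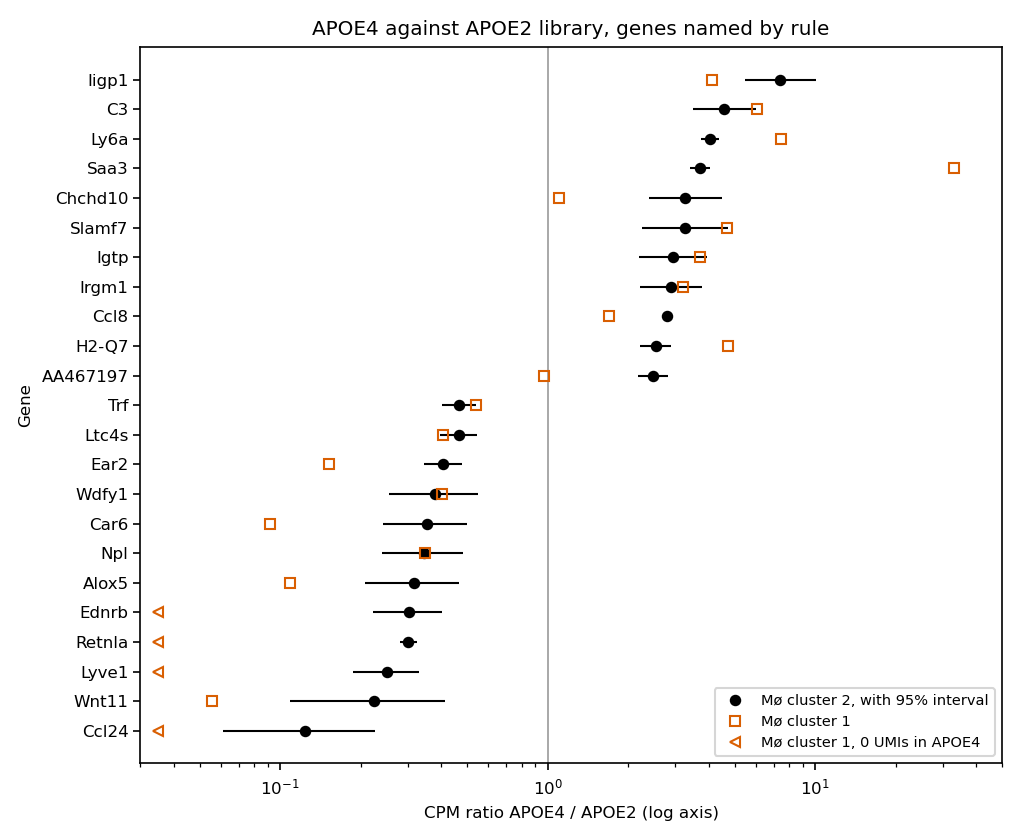
Ratio of CPM in APOE4 to APOE2 (log axis) for 11 genes named as higher and 12 named as lower in APOE4, with points and 95% counting intervals for Mø cluster 2 and open squares for Mø cluster 1; triangles mark 0 UMIs in APOE4 in Mø cluster 1. Chchd10 and AA467197 lie at 3.26 and 2.48 in Mø cluster 2 but near 1 in Mø cluster 1, and Ccl24, Retnla, Lyve1 and Ednrb have triangles.

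Interferon gamma response genes had a median log2 ratio of 1.497, with 14 of 22 at least 2-fold higher in APOE4 and 0 at least 2-fold lower, beside 2.56% and 3.04% of all genes with at least 20 UMIs. The GTPase Iigp1, which attacks vacuoles of intracellular parasites, had 104 CPM in APOE4 and 14.1 CPM in APOE2, a ratio of 7.39 [5.46, 10.1], and 4.11 in Mø cluster 1. Other GTPases of this family followed, Igtp with 64.1 and 21.7 CPM (2.95 [2.21, 3.96]) and Irgm1 with 75.3 and 25.98 CPM (2.90 [2.22, 3.79]). The guanylate-binding protein Gbp2 had 178 and 49.3 CPM. Cxcl9 had 87.1 CPM in APOE4 and 3.34 CPM in APOE2, and Ccl5, which T cells also make, had 468 and 61.5 CPM. Cxcl9 and Iigp1 rest on few cells. Cxcl9 was seen in 16 of 161 cells in APOE4 and 4 of 398 in APOE2, and Iigp1 in 40 and 21 cells.

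Antiviral interferon-stimulated genes had a median of 1.21, with 14 of 23 at least 2-fold higher, among them Isg15, a ubiquitin-like protein (188 CPM in APOE4 and 81.0 CPM in APOE2), and Irf7, a transcription factor of the interferon response (174 and 69.8 CPM). All 19 MHC class I genes were higher in APOE4, 5 of them at least 2-fold, with a median of 0.75. Tap1, which carries peptides to class I molecules, had 195 CPM in APOE4 and 88.7 CPM in APOE2, and the class I gene H2-Q7 had 278 and 110 CPM (2.54 [2.22, 2.90]), in a family of near-identical copies. The MHC class II median was 0.21, with 0 of 14 members past 2-fold. In Mø cluster 1 the medians of the same libraries were larger, at 2.01 for interferon gamma genes, 1.91 for antiviral genes and 1.06 for class I, so interferon transcripts were higher in APOE4 in both labels. Of 8523 genes in Mø cluster 1, 2.53% were at least 2-fold higher in APOE4 and 2.22% at least 2-fold lower.

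T and NK cell markers stood higher in APOE4 as well (232 CPM against 72.2 CPM in APOE2, with Gzma, a cytotoxic granule protease, at 66.6 and 0.953 CPM). In the cells with 0 UMIs of these markers, 123 in APOE4 and 354 in APOE2, the interferon gamma median was 1.74 and the antiviral median 1.03. In the 83 and 220 cells with under 2 UMIs of any other lineage's markers the medians were 0.74 and 0.48, with a log2 ratio of 1.84 for Iigp1 and 0.76 for Igtp. That stricter selection also removes cells for Mitf and Csf3r, which the label itself expresses.

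Other genes named as higher in APOE4 fell under no single list. Saa3 had 815 CPM in APOE4 and 220 CPM in APOE2, a ratio of 3.71 [3.40, 4.03]. This ratio rests on few cells, with Saa3 in 37 cells in APOE4 and 61 in APOE2, and 280 and 179 UMIs in the single highest cell. Complement C3 had 97.1 and 21.2 CPM (4.58 [3.50, 6.01]). Related genes went the other way, with the acute-phase glycoprotein Lrg1 at 65.3 and 114 CPM and complement C4b at 106 and 136 CPM. The complement list had a median of -0.24, with 6 of 17 higher and 11 lower. Ly6a, a surface protein induced by interferons, had 1020 and 252 CPM (4.04 [3.74, 4.37]), against a ratio of 7.46 in Mø cluster 1. Slamf7, a receptor of activated leukocytes, had 43.6 and 13.3 CPM (3.26 [2.26, 4.72]). Ccl8, a monocyte-attracting chemokine that is also in the resident macrophage list (chromosome 11, 82115185 to 82116799, plus strand), had 2013 CPM in APOE4 and 717 CPM in APOE2 (2.81 [2.67, 2.95]). It rests on few cells: 47 cells (29.2%) in APOE4 and 91 cells (22.9%) in APOE2 held it, the single highest cell gave 424 and 371 UMIs, and the log2 ratio was -0.35 in the 83 and 220 cells with under 2 UMIs of other lineages.

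Chchd10 and AA467197 differed from Mø cluster 1. Chchd10, a mitochondrial protein, had 59.1 CPM in APOE4 and 18.1 CPM in APOE2 (3.26 [2.39, 4.47]), against a ratio of 1.10 [0.797, 1.51] in Mø cluster 1, and the log2 ratios differed by 1.56 [0.94, 2.19]. AA467197 had 296 and 120 CPM (2.48 [2.18, 2.81]), against 0.972 [0.885, 1.07], with a difference of 1.35 [1.12, 1.57]. Both rest on few cells. Chchd10 was seen in 27 cells in APOE4 and 57 in APOE2, and the richest 17 cells in APOE4 held 89.5% of its UMIs, with 24 of 95 in a single cell. For AA467197 the richest 17 and 40 cells held 84.7% and 83.3%. Chchd10 overlaps Mmp11 on the other strand, and Slamf7 also overlaps another gene, so reads of these pairs cannot be told apart without strand.

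Of the genes lower in APOE4, several belong to alternative activation. Ccl24, an eosinophil attractant induced by interleukin 4, had 6.84 CPM in APOE4 and 55.1 CPM in APOE2, a ratio of 0.124 [0.0612, 0.227]. Retnla had 513 and 1699 CPM (0.302 [0.280, 0.324]), and the ribonuclease Ear2 106 and 259 CPM (0.408 [0.345, 0.480]), in a family of near-identical copies. The resident macrophage gene Lyve1 had a ratio of 0.2503 [0.187, 0.330]. Ednrb, which is not in the resident list, had one of 0.303 [0.223, 0.403]. The secreted signal Wnt11 had 6.84 CPM in APOE4 and 30.5 CPM in APOE2. Alox5, which starts leukotriene synthesis, had 18.0 and 57.0 CPM (0.317 [0.208, 0.467]), and Ltc4s, which acts after it, 112 and 241 CPM (0.465). Alox5 and Ltc4s, both of leukotriene synthesis, were thus lower in APOE4, and other members of that pathway are not given here. Wnt11 and Ltc4s overlap genes on the other strand. Transferrin, Trf, the iron carrier of plasma, had 139 and 297 CPM (0.469 [0.405, 0.541]).

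Some of these genes were at 0 in Mø cluster 1 of APOE4, with Ccl24 at 0 against 2.42 CPM in APOE2, Retnla at 0 against 12.6 CPM and Lyve1 at 0 against 6.69 CPM, while Trf had 167 against 309 CPM. Several of the lower genes, Retnla and Lyve1 among them, rest on few cells. Ccl24 had 11 UMIs in 9 cells in APOE4 and 231 UMIs in 64 cells in APOE2. Wnt11 had 11 UMIs in 7 cells and 128 UMIs in 57 cells, and Ednrb 53 in 18 and 457 in 129. The log2 ratio of Retnla was -1.73 over all cells of Mø cluster 2 and -0.86 without the 10% of cells with most UMIs. That of Lyve1 was -2.00 over all cells and -0.91 in the cells under 5% mitochondrial UMIs (137 in APOE4 and 284 in APOE2). Over the lists, 5 of 18 resident genes and 5 of 20 alternatively activated genes were at least 2-fold lower in APOE4, and 1 of each was at least 2-fold higher, with medians of -0.41 and -0.34. Over all genes with at least 20 UMIs, 3.04% were at least 2-fold lower and 2.56% higher. The higher members were Ccl8 among the resident genes and Chil3 among the alternatively activated genes. In Mø cluster 1 both lists lay lower still, with medians of -1.41 and -0.66. There 10 of 15 resident genes were at least 2-fold lower and 0 higher, and 6 of 19 alternatively activated genes were lower and 2 higher. Over all 10053 genes there, 387 were lower and 354 higher. Among the 12 genes that mark the label, Arg1 had a ratio of 0.635 and Hmox1 of 1.14. Of the 7 that differed at least 2-fold, Retnla, Car6, Fcna, Lyve1, Cd163 and Bcam were lower in APOE4 and only Saa3 was higher.

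Promoters of genes on either side were read for interferon and Stat6-type motifs, as background to the levels above. They are printed for the 3 genes higher in APOE4 whose promoters hold the interferon-stimulated response motif, and for Retnla, which holds a Stat6-type motif. The letters are the 250 bases before the start of the gene in RefSeq on GRCm38.p6, 5' to 3' on the gene's strand. Capitals mark GAAA, any 2 bases, GAAA in Igtp, Irgm1 and Saa3, and TTC, any 4 bases, GAA in Retnla.
Igtp, chr11:58199306-58199555, plus strand: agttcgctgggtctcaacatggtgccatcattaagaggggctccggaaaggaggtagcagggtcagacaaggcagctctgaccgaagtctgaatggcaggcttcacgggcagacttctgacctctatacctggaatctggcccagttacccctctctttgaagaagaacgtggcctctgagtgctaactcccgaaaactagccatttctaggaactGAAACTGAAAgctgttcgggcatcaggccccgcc
Irgm1, chr11:48871421-48871670, minus strand: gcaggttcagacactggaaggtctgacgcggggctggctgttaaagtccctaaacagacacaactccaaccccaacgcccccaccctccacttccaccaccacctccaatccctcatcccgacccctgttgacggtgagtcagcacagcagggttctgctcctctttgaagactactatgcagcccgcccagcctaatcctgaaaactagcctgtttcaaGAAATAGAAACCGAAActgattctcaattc
Saa3, chr7:46715677-46715926, minus strand: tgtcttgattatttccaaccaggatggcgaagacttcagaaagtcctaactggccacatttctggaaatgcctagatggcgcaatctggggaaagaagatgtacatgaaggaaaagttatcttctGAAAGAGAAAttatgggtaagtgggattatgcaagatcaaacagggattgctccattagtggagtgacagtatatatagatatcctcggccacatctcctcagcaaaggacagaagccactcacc
Retnla, chr16:48842359-48842608, plus strand: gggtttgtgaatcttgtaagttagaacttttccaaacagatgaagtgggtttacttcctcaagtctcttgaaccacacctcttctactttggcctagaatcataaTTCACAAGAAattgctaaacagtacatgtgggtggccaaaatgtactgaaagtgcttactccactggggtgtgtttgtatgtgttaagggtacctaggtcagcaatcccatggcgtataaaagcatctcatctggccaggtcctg

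Both strands were searched from 250 bases before to 50 bases after the start. The GAAA pair lies in 3 of 9 promoters found for genes higher in APOE4, in 0 of 9 found for genes lower, and in 1131 of 32851 promoters in the table (3.44%). In Irgm1 the capitals cover a pair of overlapping matches. The Stat6-type motif lies in 6.95% of all promoters and in 1 of 8 found for the genes that mark the label, that of Retnla. These matches say only which letters the windows hold. Iigp1, Ly6a, Lyve1, Ccl24 and Arg1 are named only.

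**Figure D5:**
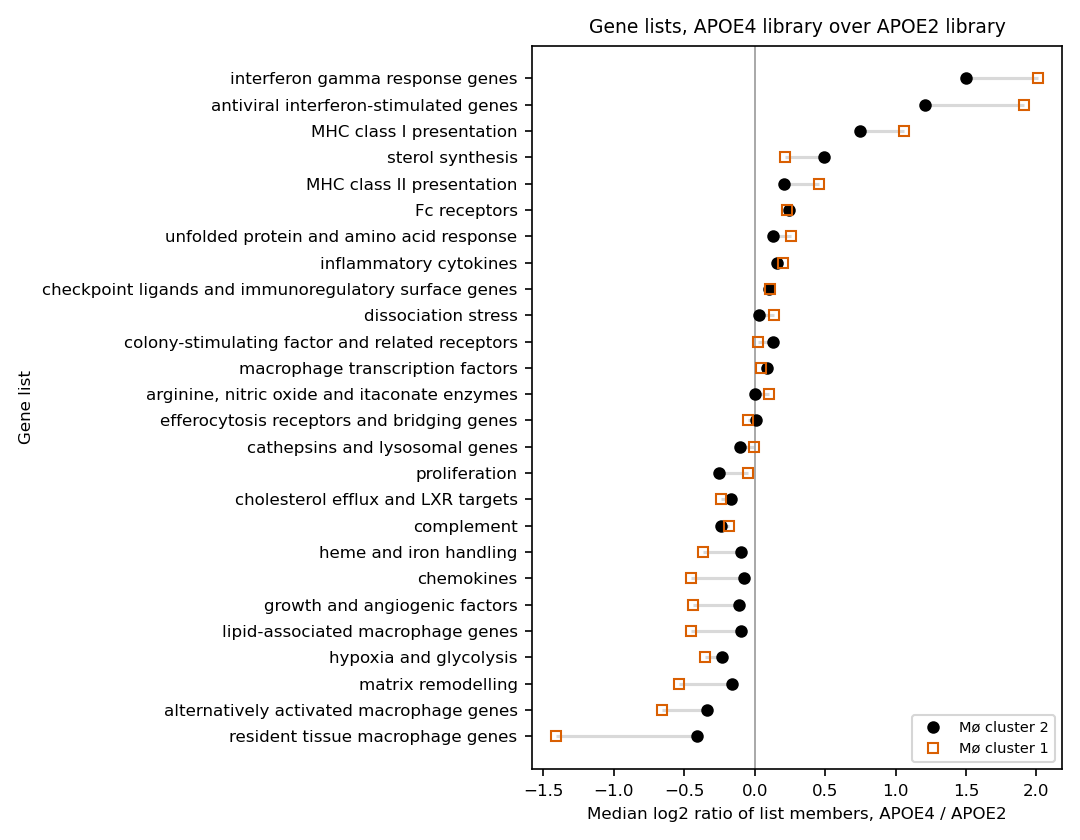
Median log2 ratio of APOE4 to APOE2 for each gene list other than the cell type marker lists, in Mø cluster 2 and in Mø cluster 1, with a line at 0. Of the lists drawn, interferon gamma and antiviral genes lie farthest right in both labels, and the lipid-associated and heme lists lie at -0.10 in Mø cluster 2.

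Several lists that separate Mø cluster 2 from Mø cluster 1 had medians closer to 0 between the genotypes. The median log2 ratio of APOE4 to APOE2 was -0.10 for lipid-associated genes, -0.10 for heme and iron genes, -0.23 for hypoxia and glycolysis genes (0 of 24 past 2-fold, 19 of 24 lower), -0.16 for matrix genes and -0.07 for chemokines. Within the chemokines, however, Cxcl3, a neutrophil attractant, had 42.3 CPM in APOE4 and 185 CPM in APOE2, while Cxcl9 and Ccl5 were higher in APOE4. Sterol synthesis genes had a median of 0.49, with 2 of 18 past 2-fold, and genes of cholesterol efflux one of -0.17. The sterol exporter Abca1 had 307 CPM in APOE4 and 417 CPM in APOE2. The macrophage transcription factors had a median of 0.09, with Maf, which keeps macrophages differentiated, at 267.5 CPM in APOE4 and 352.5 CPM in APOE2. Chil3, a chitinase-like protein in both the monocyte marker and alternatively activated lists, had 24.9 CPM in APOE4 and 6.20 CPM in APOE2. Monocyte markers had a median of 0.66, with 6 of 9 higher and 3 lower. The matrix proteoglycan Vcan ran the other way (90.2 and 182 CPM), and the summed level of the list was 2413 CPM in APOE4 and 2497 CPM in APOE2. Macrophage markers had a median of -0.07.

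The number of cells with the name is a description only, since 7 of the 12 genes that set the label apart differ at least 2-fold between the libraries and could move cells in or out of it. Mø cluster 2 took 2.99% [2.55, 3.48] of annotated cells in APOE4 and 8.53% [7.75, 9.37] in APOE2. Of the 1557 and 1734 cells under the 6 monocyte and macrophage labels it took 10.3% [8.87, 11.96] and 22.95% [20.99, 25.01]. When these 1557 and 1734 cells were placed with the nearest of the 6 profiles, using 5115 genes that differ little between the libraries, 132 cells in APOE4 and 402 cells in APOE2 fell to Mø cluster 2 (2.45% and 8.62% of annotated cells). Of the cells that carry the name, 77.0% in APOE4 and 87.4% in APOE2 were nearest to its own profile, and 12 and 8 cells were nearest to Mø cluster 1. The 6 profiles are those of the labelled cells themselves, so this placement is no independent check of the shares.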

How the data were processed

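Droplet single-cell RNA sequencing (Chromium 3' v3) gave 1 pooled library per genotype. The deposited matrices are UMI counts of each gene in each barcode, unscaled by the authors, from Cell Ranger 3.0.1 per the file headers and on mm10 per the submitters' processing notes. The deposited annotation gives each cell's name and, per the file headers, its percent of mitochondrial UMIs, made with Seurat 3.0.2 per the same notes. The sources used here do not give the naming of cells, strand use in counting or doublet removal. No doublet caller was run, and cells with UMIs of other lineages were left out in alternatives instead.

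The label was taken as given. UMIs were summed per label and library as CPM, with exact conditional binomial 95% intervals for ratios and Clopper-Pearson intervals for shares, which cover counting error only. Ratios needed at least 50 UMIs, or 20 for list members. A gene at 0 UMIs was set to a floor of 3 UMIs per library. Cells were thinned to 5000 UMIs for variance and correlation and to 2000 UMIs for shares of cells. The files list 27998 genes, of which 14130 had a UMI in the label. Genes with at least 100 UMIs were named by rule: the 12 of greatest ratio to the next-highest label, the 12 highest and 12 lowest against Mø cluster 1 by the smaller ratio of both libraries, the 12 highest and 12 lowest between genotypes by the interval bound nearest 1 (with at least 10% of the CPM of the highest label), and the 10 of greatest variance over mean. Members of gene lists were named beside their lists. The members and lists were chosen with earlier results of these data known. Gene positions come from GENCODE M21 (mm10) and promoters from RefSeq (GRCm38.p6). Python 3.11.15, numpy 2.4.6, scipy 1.17.1, pandas 2.3.3, matplotlib 3.10.9 and, for TMM factors, edgeR 4.0.16 in R 4.3.3 were used, and the ratio script was tested on simulated data. Alternatives were other UMI minimums, TMM, thinning, mitochondrial and depth filters, and removal of cells with UMIs of other lineages. A few genes that the rule or the lists would name are not reported here.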

Additional observations from a re-analysis of the deposited data

How the results depend on the processing

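The counts of genes past 2-fold moved with the depth asked of a gene. With at least 20 UMIs, 243 genes were higher and 289 lower in APOE4 in Mø cluster 2, and with at least 200 UMIs 32 and 24. Against Mø cluster 1, 168 were higher and 102 lower with at least 200 UMIs. The number higher in APOE4 was 62 after thinning to 5000 UMIs, where fewer genes were measured, 59 without cells with 2 or more UMIs of other lineages, which keeps 83 and 220 cells, and 176 from the mean of each cell's own CPM. The causes were not tested. Leaving out cells with any T or NK cell UMI, an alternative chosen after seeing the data, gave 102 higher and 113 lower. The share of the label was 10.3% in APOE4 and 22.95% in APOE2 of the 6 monocyte and macrophage labels. By nearest profile, with profiles of the labelled cells themselves, 2.45% of annotated cells in APOE4 fell to the label, against 2.99% by name. In APOE2, 402 cells fell to it, against 398 by name. The log2 ratio of Ccl8 turned to -0.35 without cells of other lineages, and that of AA467197 was -0.041 in Mø cluster 1, in other cells. The log2 ratio was -1.06 for Ednrb and -1.33 for Lyve1 from the mean of each cell's CPM, -0.73 for Npl, a sialic acid lyase, after thinning and 2.59 for Chchd10 without other lineages. Of 208 list medians recomputed, 8 moved, and that of hypoxia and glycolysis genes between genotypes ranged between -0.40 and -0.08. Log2 ratios of genes were less stable, as 57 moved, 2 reversed and 157 stayed the same. Among recomputed counts of genes 9 moved and 31 stayed the same, and among shares 3 moved and 3 stayed the same. No paired analysis was possible because each genotype has 1 library.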

Other observations

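Growth factors and transcription factors of Mø cluster 2 complete the comparison with Mø cluster 1. Areg, a ligand of the epidermal growth factor receptor, had 104 CPM in APOE4 and 103 CPM in APOE2, against 9.59 and 26.02 CPM in Mø cluster 1. Hbegf, another ligand of that receptor, had 29.2 and 43.1 CPM, against 3.07 and 11.5 CPM. The cytokine Il6 had 44.2 and 49.6 CPM, against 4.22 and 6.88 CPM. Klf2, a transcription factor of quiescent leukocytes and endothelium, had 597 CPM in APOE4 and 526 CPM in APOE2, against 133 and 116 CPM, and its relative Klf4 had 815 and 747 CPM against 381 and 428 CPM. Klf2 and Klf4 also respond to tissue dissociation, and the dissociation stress list was higher in Mø cluster 2 (median log2 ratio 0.42 in APOE4 and 0.38 in APOE2). Its part in these values was not tested. Vegfa was near the same level in both labels, at 289 and 265 CPM against 253 and 256 CPM, although within Mø cluster 2 it went with Arg1 from cell to cell.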
